A study of Mus musculus with 32 samples.

Results

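Cd5l and 9 genes linked to the liver X receptors (LXRs) were followed across 8 groups of mouse macrophages, as 10 of the 25067 genes of the deposited table. The other 9 genes are Abca1, Abcg1, Apoe, Mylip, Lpcat3, Scd2, Lpl, Pltp and Ch25h. They were chosen as LXR targets and genes of LXR ligand metabolism, while Cd5l was chosen by its own knockout difference in these data. That difference is therefore given as a description without a test. Each gene is represented by its most abundant transcript in the table.

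LXRs are nuclear receptors that bind oxidised forms of cholesterol and, paired with a retinoid X receptor, switch on genes that remove cholesterol from the cell. In macrophages their targets include cholesterol transporters, apolipoproteins and enzymes that set how unsaturated the membrane lipids are. CD5L is a secreted scavenger receptor protein of tissue macrophages, and its gene is a known LXR target. Nur77, encoded by Nr4a1, is another nuclear receptor, which macrophages make within an hour or so of activation.

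Bone marrow-derived macrophages (BMDMs) came from male C57Bl6/J mice aged 6 to 12 weeks, either wild type (BMDM-WT) or lacking Nur77 in the whole body (BMDM-Nur77-KO, genotype cre in the labels). The knockout was made by crossing mice with Cre recombinase under the cytomegalovirus promoter to mice with a loxP-flanked Nr4a1 gene, and from these came Nur77-KO mice without Cre, which were used together with their wild-type littermates. The strain of the loxP parent is not given in the sources used here. Marrow cells of both genotypes were grown for 7 days in medium conditioned by L929 cells. RNA was sequenced at 0, 1, 5 and 18 h of exposure to 100 ng/ml lipopolysaccharide (LPS), a bacterial ligand of Toll-like receptor 4, with 4 libraries per group and 32 in all. The number of animals behind the 4 replicates is not given, so p-values measure the spread between these libraries, which may be technical.

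Libraries held 8742362 to 15780926 tags on the transcripts used. Levels are CPM, counts scaled to a common library size with the trimmed mean of M values (TMM), and RPKM, which also divides by transcript length, serves to compare genes with each other. Nr4a1, the targeted gene, had 19.7 ± 4.34 CPM in BMDM-WT and 5.24 ± 1.19 CPM in BMDM-Nur77-KO at 0 h (SD, n = 4). Its libraries were at 19.4, 15.5, 25.7 and 18.1 CPM in BMDM-WT and 4.92, 4.61, 4.45 and 7.00 CPM in BMDM-Nur77-KO at 0 h. Those at 1 h held 484, 485, 358 and 421 CPM in BMDM-WT and 242, 180, 146 and 193 CPM in the knockout, and the genotypes overlapped at neither time. At 1 h it was at 437 ± 60.3 and 191 ± 39.9 CPM (log2 fold change -1.20, SE 0.15, adjusted p = 1.8e-06). The tags of all exons are pooled in one count, so the table does not show which exons remain in the knockout. Macrophage markers such as Lyz2 (3710 to 11570 CPM) and Csf1r (549 to 2107 CPM) were present in all 32 libraries. The adipocyte markers Plin1, Cidec and Lep were at 0 in all 32 libraries, and the fibroblast marker Col1a1 reached at most 0.318 CPM. Neutrophil, B cell and erythroid lists summed to at most 63.4, 4.76 and 0.490 CPM. BMDM-Nur77-KO 5 h replicate 1 (median Pearson r of 0.959 with its own group) and BMDM-Nur77-KO 18 h replicate 4 (0.981) stood apart from the other libraries. For Cd5l and the LXR-linked genes followed with it, results that rest on these libraries are given without them too. No such values are given for the genes of the further lists, the marker sums or the neighbours of Cd5l on its chromosome. In bulk RNA, fewer cells of a type and less RNA per cell cannot be told apart.

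The start regions of 7 of the 10 genes are in the RefSeq promoter table (GRCm38.p6), in 9 windows of 300 bases from 250 before to 50 after a start site. Both strands were searched for the LXR element DR4 (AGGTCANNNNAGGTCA, up to 2 mismatches), for the Nur77 element NBRE (AAAGGTCA) and for the AP-1 element (TGANTCA). These are found in 3.02%, 1.51% and 7.81% of the 32851 windows of all genes. None of the 9 windows held any of them, which says only that these letters are not in these windows. With up to 3 mismatches, a setting added after the first search, the DR4 letters were found in 21.9% of all windows and, among the 9, once, in that of Abca1. The windows of Cd5l, which carries the largest genotype difference among the 10 genes, and of Abca1 are shown, with that single match in capitals. Cd5l lies on the plus strand at chr3:87357631-87357930 and Abca1 on the minus strand at chr4:53159846-53160145.
Cd5l: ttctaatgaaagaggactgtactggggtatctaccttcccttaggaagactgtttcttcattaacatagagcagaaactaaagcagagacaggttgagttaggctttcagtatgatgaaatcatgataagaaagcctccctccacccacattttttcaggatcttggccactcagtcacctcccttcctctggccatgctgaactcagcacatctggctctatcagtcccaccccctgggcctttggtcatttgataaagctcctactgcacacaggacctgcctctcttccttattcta
Abca1: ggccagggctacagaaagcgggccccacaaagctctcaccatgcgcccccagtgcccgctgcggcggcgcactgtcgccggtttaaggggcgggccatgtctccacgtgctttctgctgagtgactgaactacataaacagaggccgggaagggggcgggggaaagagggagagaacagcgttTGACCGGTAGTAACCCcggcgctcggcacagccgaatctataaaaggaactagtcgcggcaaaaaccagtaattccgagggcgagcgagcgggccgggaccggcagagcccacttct
The match in the Abca1 window begins 67 bases before the start site and reads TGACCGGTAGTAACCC on the strand of the gene.

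Cd5l was high in BMDM-WT and far lower in BMDM-Nur77-KO at every time. At 0 h the BMDM-WT libraries held 998, 761, 1066 and 1043 CPM (mean 967 ± 140 SD, n = 4), and the BMDM-Nur77-KO libraries 49.6, 36.8, 47.4 and 46.4 CPM (45.01 ± 5.65). At 1 h the values were 883, 846, 827 and 719 CPM in BMDM-WT and 43.6, 43.9, 39.1 and 43.4 CPM in BMDM-Nur77-KO. No library of one genotype came near the range of the other at either time. After 5 h, BMDM-WT held 829, 868, 840 and 717 CPM and BMDM-Nur77-KO 25.4, 35.0, 40.6 and 36.7 CPM. At 18 h, BMDM-WT held 514, 549, 483 and 531 CPM and BMDM-Nur77-KO 26.2, 24.6, 21.9 and 17.4 CPM. The lowest BMDM-WT library of all times was thus at 483 CPM and the highest BMDM-Nur77-KO library at 49.6 CPM. The knockout mean was 4.23% to 5.19% of the wild-type mean, with log2 differences of -4.43, -4.27, -4.56 and -4.53 at 0, 1, 5 and 18 h (SE 0.14 each). These values chose the gene and carry no p. Counts were high enough to measure the remaining transcript, with 212 to 618 tags per BMDM-Nur77-KO library.

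**Figure D1:**
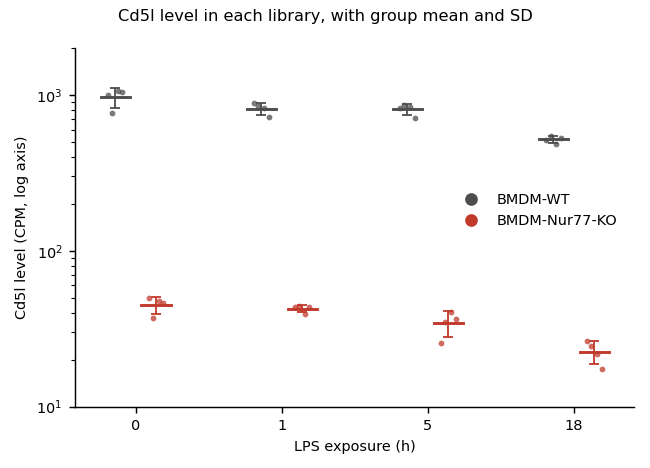
Cd5l level in CPM on a log axis against hours of LPS, for BMDM-WT (grey) and BMDM-Nur77-KO (red). Points are libraries, bars the mean of 4 and its SD. All BMDM-WT libraries lie at 483 CPM or above and all BMDM-Nur77-KO libraries at 49.6 CPM or below, and both genotypes are lowest at 18 h.

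Within each genotype, which the choice of the gene did not use, Cd5l fell late after LPS and by a similar factor. From 0 to 18 h it fell by 0.90 on the log2 scale in BMDM-WT (SE 0.12, adjusted p = 1e-07, edgeR) and by 1.00 in BMDM-Nur77-KO (SE 0.13, adjusted p = 4.7e-08), and the groups did not overlap in either genotype. The BMDM-Nur77-KO value lies on the limit of a log2 fold change of 1 used for calls. It is -0.89 without replicate 4 at 18 h, and between -0.95 and -0.99 without replicate 3 at 18 h or without replicate 1, 3 or 4 at 0 h. At 5 h, Cd5l was lower than at 0 h by 0.38 in BMDM-Nur77-KO (SE 0.13, adjusted p = 0.0084), with overlapping groups, while the difference in BMDM-WT was -0.25 (SE 0.12, adjusted p = 0.063). The difference of the 2 responses at 18 h was -0.10 (SE 0.17), and it is given without a test because it contains the knockout difference. In the order of the 8 groups, only the steps from BMDM-WT at 5 h to BMDM-WT at 18 h and from there to BMDM-Nur77-KO at 0 h did not overlap. Per transcript length, Cd5l at 0 h was at 475 RPKM in BMDM-WT, close to Pltp (535 RPKM), and at 22.1 RPKM in BMDM-Nur77-KO, close to Lpcat3 (23.1 RPKM).

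Cd5l lies on the plus strand of chromosome 3 (chr3:87357881-87371074 in GRCm38), and some of its neighbours on that chromosome also differed between the genotypes at all 4 times. The comparison was made after the values were seen and is a description. Of the 11279 genes tested, 79 (0.700%) were called in the same direction at 0, 1, 5 and 18 h, against 11 of 534 (2.06%) on chromosome 3. Only chromosome 1 had a higher share, 18 of 674 genes (2.67%). The counts of 79 and 11 include Cd5l, whose place in them rests on the values that chose it. Within 10 Mb of the start of Cd5l, the count was 5 of 179 genes (2.79%) besides Cd5l itself. In the rest of chromosome 3 it was 5 of 354 (1.41%). Fcrl1, an Fc receptor-like gene of B cells that starts 0.018 Mb away, was lower in BMDM-Nur77-KO, with log2 fold changes of -1.86, -1.84, -2.497 and -1.98. Rps3a1, a ribosomal protein gene at a distance of 1.22 Mb, was lower as well, with -1.57, -1.48, -1.33 and -1.33. Etv3, an ETS-family transcription factor gene 0.168 Mb away, was higher by 0.83, 0.71, 0.59 and 0.80. Anxa9 and Mtmr11 were also lower at all 4 times, while the nearer gene Fcrls was not called at any time (-0.13 to 0.47). A difference tied to this stretch of chromosome 3 and one tied to the loss of Nur77 cannot be told apart in these groups.

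**Figure D2:**
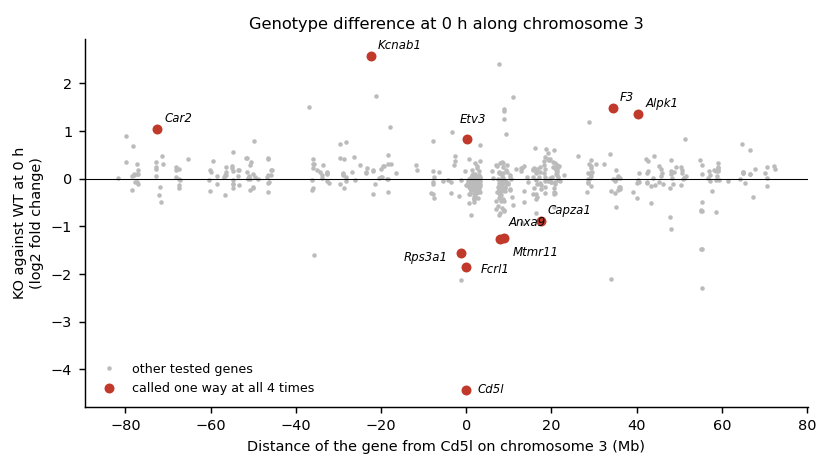
Log2 fold change of BMDM-Nur77-KO against BMDM-WT at 0 h for the 534 tested genes of chromosome 3, by distance from Cd5l in Mb. Red points are the 11 genes, Cd5l included, called in one direction at all 4 times. Rps3a1, Fcrl1, Etv3, Anxa9 and Mtmr11 lie within 10 Mb of Cd5l.

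No genotype difference of the cholesterol transporters passed the test. Abca1 (chr4:53030789-53159988, minus strand), which loads cholesterol onto lipid-poor apolipoproteins, ranged from 733 to 876 CPM in BMDM-WT and from 676 to 1034 CPM in BMDM-Nur77-KO at 0 h. At 1 h the BMDM-Nur77-KO libraries (694 to 804 CPM) lay below those of BMDM-WT (830 to 1073 CPM) without overlap. The genotype difference was between -0.32 and 0.08 on the log2 scale at the 4 times (SE 0.16, smallest adjusted p = 0.28). After LPS, Abca1 fell by 0.76 in BMDM-WT (SE 0.16, adjusted p = 7.9e-05) and by 0.73 in BMDM-Nur77-KO (SE 0.16, adjusted p = 0.00013) at 5 h, and it was still lower at 18 h by 0.63 and 0.62. In the order of the 8 group means, the 4 groups at 0 and 1 h came before the 4 groups at 5 and 18 h. Among neighbours in this order, only the knockout group at 1 h and the next one, the knockout group at 18 h, did not overlap. The early and late libraries as a whole did overlap. At 18 h, BMDM-WT replicate 3 was at 711 CPM and the other 3 at 426 to 442 CPM. That replicate lay above the lowest knockout library at 0 h (676 CPM) and the lowest at 1 h (694 CPM).

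Abcg1 (chr17:31057694-31117984, plus strand), which passes cholesterol on to mature lipoprotein particles, took the opposite late course. In BMDM-WT it went from 340 ± 37.1 CPM at 0 h to 240 ± 11.0 at 1 h, 248 ± 10.8 at 5 h and 529 ± 27.2 at 18 h (SD, n = 4). In BMDM-Nur77-KO the means were 349 ± 25.4, 284 ± 12.7, 219 ± 25.9 and 610 ± 24.9 CPM. Both genotypes were thus lowest at 1 or 5 h and highest at 18 h. Between 5 and 18 h Abcg1 rose by 1.09 on the log2 scale in BMDM-WT (SE 0.08, adjusted p = 3.4e-13) and by 1.48 in BMDM-Nur77-KO (SE 0.08, adjusted p = 3.9e-16). At 1 h the BMDM-Nur77-KO libraries (274 to 303 CPM) all lay above those of BMDM-WT (230 to 254 CPM), with a difference of 0.24 (SE 0.08, adjusted p = 0.067). The BMDM-Nur77-KO libraries at 18 h (578 to 635 CPM) all lay above the BMDM-WT libraries (508 to 567 CPM), but the difference of 0.20 (SE 0.08) had an adjusted p of 0.065.

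Apoe (chr7:19696244-19701310, minus strand), the apolipoprotein that carries exported cholesterol, was the second most abundant of the 10 genes per length at 0 h in BMDM-WT (1803 RPKM). At 0 h it was lower in BMDM-Nur77-KO (1372 to 1711 CPM) than in BMDM-WT (1965 to 2579 CPM), without overlap, by 0.55 (SE 0.13, adjusted p = 0.004), which is under the limit of 0.58. It is -0.62 without replicate 4 of BMDM-Nur77-KO and -0.60 without replicate 1 or 2 of BMDM-WT, past the limit. At later times the genotypes overlapped, with differences of -0.25, -0.22 and -0.03 (adjusted p of 0.34, 0.20 and 0.90). At 18 h Apoe had fallen by 0.92 in BMDM-WT (SE 0.13, adjusted p = 2.6e-07) and by 0.40 in BMDM-Nur77-KO (SE 0.13, adjusted p = 0.0069), to 1161 ± 77.8 and 1138 ± 27.2 CPM. The 2 falls differed by 0.52 (SE 0.18, adjusted p = 0.069). The adjusted p of this difference was 0.0098 without the 2 libraries that stood apart and 0.044 without BMDM-Nur77-KO 0 h replicate 4.

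The secreted lipid-transfer and lipase genes behaved differently from each other. Pltp (chr2:164839518-164857708, minus strand), which moves phospholipids between lipoprotein particles, held 897, 830, 1128 and 1013 CPM in BMDM-WT at 0 h and 554, 576, 541 and 709 CPM in BMDM-Nur77-KO. At 5 h the values were 856, 933, 1005 and 846 CPM against 375, 578, 744 and 710 CPM. At 18 h they were 858, 857, 708 and 864 CPM against 543, 560, 579 and 360 CPM. The BMDM-Nur77-KO libraries lay below all BMDM-WT libraries at each of these times and also at 1 h (627 to 777 against 783 to 952 CPM). Pltp was lower by 0.70 at 0 h (SE 0.15, adjusted p = 0.0023), by 0.60 at 5 h (SE 0.15, adjusted p = 0.0064) and by 0.69 at 18 h (SE 0.15, adjusted p = 0.0012), and the difference at 1 h was -0.37 (adjusted p = 0.19). At 5 h the difference is -0.43 without replicate 1 of BMDM-Nur77-KO (adjusted p = 0.029), -0.577 without its replicate 2 and -0.55 without replicate 3 of BMDM-WT, all under the limit. At 18 h it is -0.55 without replicate 4 of BMDM-Nur77-KO (adjusted p = 0.0083). No LPS difference of Pltp against 0 h passed the test in either genotype (-0.235 and -0.222 at 18 h and 0.17 at the highest, smallest adjusted p = 0.18). Pltp overlaps Ctsa on the other strand, and reads of both cannot be told apart if the counting ignored strand, which is not stated.

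Lpl (chr8:68880555-68906932, plus strand), the lipase that hydrolyses triglycerides in lipoproteins, had the highest level per length of the 10 genes in both genotypes at 0 h (1979 and 2257 RPKM). It stayed between 7222 and 12450 CPM in every library up to 5 h and was at 2148 to 3979 CPM at 18 h. The fall from 0 to 18 h was 1.71 in BMDM-WT (SE 0.13, adjusted p = 1.3e-12) and 1.63 in BMDM-Nur77-KO (SE 0.13, adjusted p = 2.9e-12). The genotypes overlapped at every time, and no genotype difference had an adjusted p under 0.05 (-0.08 to 0.33, smallest adjusted p = 0.06). Its highest value, 12450 CPM, was in BMDM-Nur77-KO 5 h replicate 1.

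Mylip (chr13:45389742-45411940, plus strand) encodes IDOL, the ubiquitin ligase that marks the LDL receptor for degradation. It fell at 5 h and came back by 18 h, higher in BMDM-Nur77-KO. In BMDM-WT it was at 56.5, 50.3, 60.9 and 55.5 CPM at 0 h, 22.1, 17.6, 24.1 and 24.6 CPM at 5 h and 68.0, 64.8, 66.0 and 64.4 CPM at 18 h. In BMDM-Nur77-KO it was at 43.7, 41.6, 44.5 and 44.9 CPM, then 26.6, 21.7, 16.9 and 21.2 CPM, and then 82.9, 84.1, 80.9 and 101.8 CPM. At 0 h all BMDM-Nur77-KO libraries were below those of BMDM-WT, and at 18 h all were above them. The genotype difference went from -0.35 at 0 h (SE 0.10, adjusted p = 0.019) to 0.41 at 18 h (SE 0.10, adjusted p = 0.003), each under the limit of 0.58. From 0 to 18 h Mylip rose by 0.24 in BMDM-WT (SE 0.10, adjusted p = 0.038) and by 1.00 in BMDM-Nur77-KO (SE 0.10, adjusted p = 3.6e-10). These responses differed by 0.76 (SE 0.14, adjusted p = 0.00039). The value of 1.00 lies on the limit for a call and is 0.92 without BMDM-Nur77-KO 18 h replicate 4 and 0.98 without its replicate 2 at 0 h. The fall at 5 h was 1.33 in BMDM-WT (SE 0.11, adjusted p = 2.1e-12) and 1.02 in BMDM-Nur77-KO (SE 0.11, adjusted p = 8e-10), the latter -0.92 without replicate 3 of that group.

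Lpcat3 (chr6:124663094-124704716, plus strand), which inserts polyunsaturated chains into phospholipids, had the narrowest range of the 10 genes, 1.56-fold between its highest and lowest group mean. It fell, from 49.2 to 58.8 CPM at 0 h to 39.2 to 46.5 CPM at 18 h in BMDM-WT, and from 51.3 to 53.8 CPM to 33.0 to 39.2 CPM in BMDM-Nur77-KO. The falls were 0.31 (SE 0.09, adjusted p = 0.0036) and 0.58 (SE 0.09, adjusted p = 2.2e-06). At 18 h it was lower in BMDM-Nur77-KO by 0.33 (SE 0.09, adjusted p = 0.011), under the limit and with 1 library, BMDM-WT replicate 3 at 39.2 CPM, inside the range of the other genotype. No neighbours in the order of its 8 groups were free of overlap. Lpcat3 overlaps Emg1 on the other strand.

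Scd2 (chr19:44293676-44306864, plus strand), a desaturase that makes monounsaturated fatty acids, differed most between the genotypes at 18 h. At 0 h it was at 283, 298, 283 and 309 CPM in BMDM-WT and at 430, 378, 412 and 368 CPM in BMDM-Nur77-KO. At 5 h it was at 43.5, 43.2, 45.7 and 45.6 CPM in BMDM-WT and at 46.8, 65.3, 74.4 and 74.2 CPM in BMDM-Nur77-KO. At 18 h it was at 321, 286, 279 and 279 CPM in BMDM-WT but at 150, 138, 113 and 152 CPM in BMDM-Nur77-KO. BMDM-Nur77-KO libraries were thus all above those of BMDM-WT up to 5 h and all below them at 18 h. The difference was 0.44 at 0 h (SE 0.10, adjusted p = 0.0031) and 0.55 at 5 h (SE 0.11, adjusted p = 0.0004), both under the limit, and -1.08 at 18 h (SE 0.10, adjusted p = 1.5e-09). At 5 h it is 0.68 and past the limit without replicate 1 of BMDM-Nur77-KO. LPS lowered Scd2 at 5 h by 2.72 in BMDM-WT (SE 0.11, adjusted p = 5.8e-20) and by 2.61 in BMDM-Nur77-KO (SE 0.11, adjusted p = 1.1e-19). From 5 to 18 h it rose by 2.71 in BMDM-WT (SE 0.11, adjusted p = 1.5e-19), where its difference from 0 h was -0.01 (SE 0.10). In BMDM-Nur77-KO the rise was 1.08 (SE 0.10, adjusted p = 1.2e-10; 0.95 without replicate 1 at 5 h), which left it 1.52 below 0 h. The response at 18 h differed between the genotypes by -1.52 (SE 0.14, adjusted p = 1.1e-08).

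Ch25h (chr19:34473783-34475148, minus strand) makes 25-hydroxycholesterol, an oxysterol that can bind LXR, and it had the widest range of the 10 genes. It overlaps Gm26902 on the other strand, with the same limit as for Pltp. At 0 h it had 0 to 4 tags in each library of both genotypes, where 3 tags are worth 0.156 to 0.273 CPM, so that no genotype fold is given for that time. It passed the filter on low values through the 4 groups at 5 and 18 h, while the other 9 genes passed it in all 8 groups. At 1 h it had 0.468 to 0.835 CPM in BMDM-WT and 0.602 to 0.751 CPM in BMDM-Nur77-KO, from 7 to 10 tags per library. At 5 h it reached 48.7, 42.5, 44.2 and 55.3 CPM in BMDM-WT and 22.3, 23.5, 27.4 and 30.5 CPM in BMDM-Nur77-KO. At 18 h it was at 2.93, 2.48, 2.78 and 2.94 CPM in BMDM-WT and at 16.2, 16.9, 24.1 and 15.2 CPM in BMDM-Nur77-KO. The order of the genotypes was thus reversed between the 2 times, without overlap at either. Ch25h was lower in BMDM-Nur77-KO by 0.88 at 5 h (SE 0.14, adjusted p = 4.1e-05) and 6.51-fold higher at 18 h (log2 fold change 2.70, SE 0.18, adjusted p = 6.3e-13). Against 3 tags per library at 0 h, BMDM-Nur77-KO was at least 2.87-fold higher at 1 h, at least 111-fold higher at 5 h and at least 77.8-fold higher at 18 h. From 5 to 18 h it fell by 4.09 in BMDM-WT (SE 0.17, adjusted p = 7.1e-19) and by 0.51 in BMDM-Nur77-KO (SE 0.14, adjusted p = 0.0023), the latter under the limit and with overlapping groups. The response at 18 h relative to 0 h differed between the genotypes by 3.16 (SE 0.79, adjusted p = 0.0076), a fitted value that rests on the few tags at 0 h and has an adjusted p of 0.12 without BMDM-WT 0 h replicate 4.

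**Figure D3:**
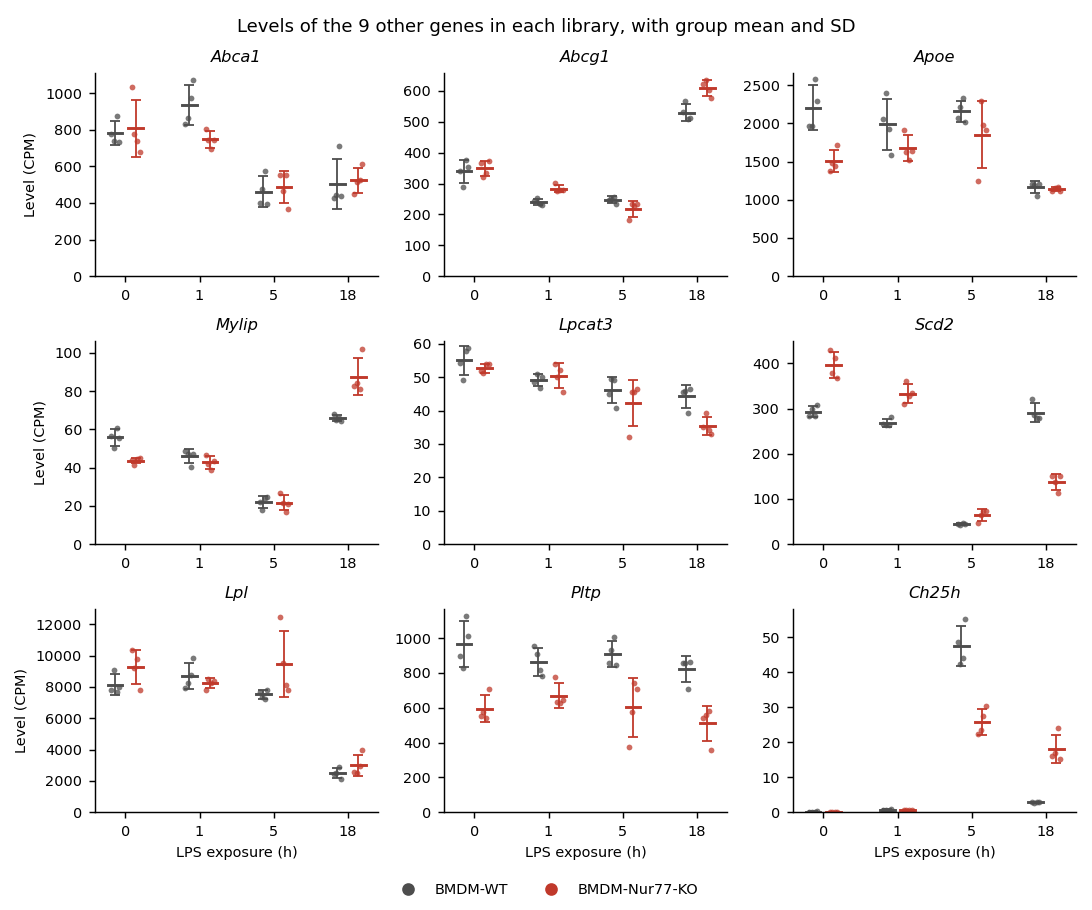
Level in CPM (linear axes from 0) against hours of LPS for 9 genes, BMDM-WT in grey and BMDM-Nur77-KO in red. Points are libraries, bars the mean of 4 and its SD. Scd2 and Ch25h part at 18 h, Pltp is lower in BMDM-Nur77-KO, and Abca1 and Lpl overlap between the genotypes at most times.

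Sums over marker lists also differed between the genotypes without overlap. This held for macrophage markers at 5 and 18 h, dendritic cell markers at 0 and 18 h and neutrophil markers at 1 h. At 18 h the 6 dendritic cell markers summed to 13.6 to 21.8 CPM in BMDM-Nur77-KO and 5.18 to 7.14 CPM in BMDM-WT, with Xcr1 and Clec9a as the highest genes of the list, while the defining marker Flt3 was at 0 in 18 of the 32 libraries. The 7 macrophage markers summed to 10480 to 12190 CPM in BMDM-Nur77-KO and 13720 to 14390 CPM in BMDM-WT. Lyz2 was the highest of the 7, with a median of 8685 CPM over the 32 libraries, and Cd68 came next with 1490 CPM. The macrophage sums thus weigh Lyz2 most and do not show how the other markers differed. At 5 h the dendritic cell sums were 13.1 to 27.1 CPM and 13.1 to 19.0 CPM, and overlapped. The macrophage sums at 5 h were 16220 to 17630 CPM in BMDM-WT, and all lower in BMDM-Nur77-KO, at 12690 to 15670 CPM. At 0 h, the macrophage sums were 13190 to 15720 CPM in BMDM-Nur77-KO and 13180 to 18740 CPM in BMDM-WT, and overlapped. The dendritic cell sums at 0 h were 1.548 to 2.529 CPM in BMDM-Nur77-KO and 1.221 to 1.505 CPM in BMDM-WT. The neutrophil sums at 1 h were 52.8 to 63.37 CPM in BMDM-Nur77-KO and 37.55 to 48.84 CPM in BMDM-WT. The part of these sums in the differences of Scd2, Ch25h and Pltp was not tested.

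Counted over the genes besides Cd5l, few genotype differences passed both an adjusted p under 0.05 and the limit of 0.58. At 0 h it was 1 of 9 lower (Pltp) and none higher, against 2.44% of all tested genes lower and 2.38% higher. At 1 h none of 9 was called by edgeR or DESeq2, with 4 at an unadjusted p under 0.05, against 1.51% of all genes higher and 1.36% lower. At 5 h 2 of 9 were lower (Ch25h and Pltp) and none higher, against 3.13% and 5.61% of all genes, and DESeq2 called 1. At 18 h Pltp and Scd2 were lower and Ch25h higher, against 4.12% and 5.70% of all genes. The median difference of the 9 genes was -0.06, -0.08, -0.12 and 0.06 at the 4 times, and that of all genes -0.03, 0, 0.02 and -0.01.

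For LPS against 0 h, the limit was a log2 fold change of 1, and Ch25h was left out because only groups at 5 and 18 h brought it past the filter. In BMDM-WT at 1 h none of the other 9 genes was called by edgeR or DESeq2, with 2 at an unadjusted p under 0.05, where 3.43% of all genes were higher and 1.76% lower. At 5 h Mylip and Scd2 were lower and none higher (18.0% of all genes lower, 15.7% higher), and at 18 h Lpl was lower and none higher (14.3% and 13.1%). In BMDM-Nur77-KO none of the 9 was called at 1 h by edgeR or DESeq2, with 2 at an unadjusted p under 0.05 (3.23% of all genes higher, 1.30% lower). At 5 h Mylip and Scd2 were lower and none higher (16.6% and 16.0% of all genes). DESeq2 called only Scd2 there, with Mylip at -0.93, and Mylip was at -0.92 without BMDM-Nur77-KO 5 h replicate 3. At 18 h Mylip was higher and Cd5l, Lpl and Scd2 were lower (15.4% and 16.4% of all genes). Cd5l is not called there by DESeq2 (-0.97), which called 3 of the 9. It is under the limit without any one of BMDM-Nur77-KO 0 h replicates 1, 3 and 4 and 18 h replicates 3 and 4 (-0.987 to -0.894). Mylip at 18 h is under it without BMDM-Nur77-KO 0 h replicate 2 (0.978) or 18 h replicate 4 (0.92). From 5 to 18 h, Abcg1, Mylip and Scd2 rose in both genotypes and Lpl fell in both, and Ch25h fell past the limit in BMDM-WT. Of all genes, 15.9% were higher and 14.3% lower in BMDM-WT, and 14.3% each way in BMDM-Nur77-KO.

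The LPS response itself differed between the genotypes for none of the 9 genes besides Cd5l (here with Ch25h) at 1 h, where none had an unadjusted p under 0.05 and 0.0709% of all genes were called. At 5 h none was called by edgeR or DESeq2 and 1 had an unadjusted p under 0.05, against 3.10% of all genes called. At 18 h, 3 of 9 differed (Mylip, Scd2 and Ch25h, the last with the filter and few tags named above), against 9.40% of all genes. DESeq2 called 4, adding Apoe.

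**Figure D4:**
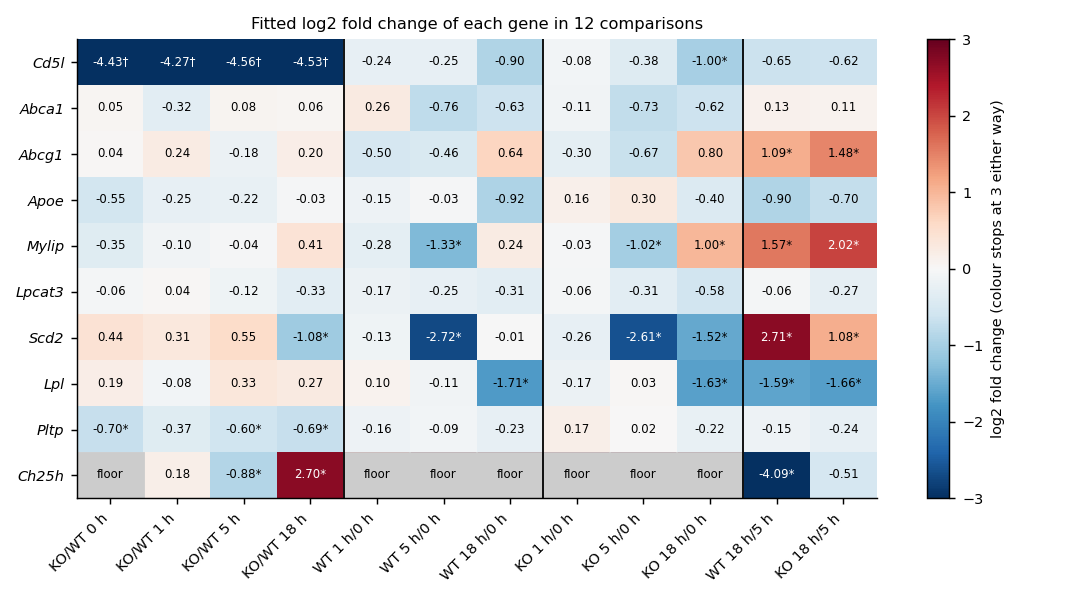
Fitted log2 fold changes of the 10 genes in 12 comparisons, red for higher and blue for lower in the first-named group. Asterisks mark calls, daggers the Cd5l values that chose the gene and carry no test, and grey cells marked floor the Ch25h comparisons with 0 h, where it had 0 to 4 tags. Below Cd5l, the darkest cells are Scd2 and Ch25h.

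Among the receptors and cofactors of the pathway, LPS moved several genes, and no genotype difference was called up to 5 h. Of the list of 10 genes (8 tested, without Cyp7b1 and Sult2b1), none was called between the genotypes at 0, 1 or 5 h by edgeR or DESeq2, with 1, 2 and 3 at an unadjusted p under 0.05. Nr1h3, encoding LXRα, rose from 10.4 ± 1.22 to 91.7 ± 12.9 CPM over 18 h in BMDM-WT (log2 fold change 3.14, SE 0.19, adjusted p = 3.9e-15) and from 8.93 ± 1.69 to 103 ± 21.7 CPM in BMDM-Nur77-KO (3.52, SE 0.20, adjusted p = 3.2e-16). Nr1h2, encoding LXRβ, had 46.2 ± 1.25 and 35.6 ± 3.17 CPM at 0 h, and its genotype difference did not pass at any time. Rxra, the partner receptor, fell to 6.70 ± 1.35 CPM in BMDM-WT and 8.71 ± 1.74 CPM in BMDM-Nur77-KO at 5 h from 52.5 ± 5.92 and 52.4 ± 4.20 CPM. At 5 h 4 of the 8 genes were lower in each genotype, against 18.0% of all genes in BMDM-WT and 16.6% in BMDM-Nur77-KO, with medians of -0.82 and -0.74 where all genes had -0.14 and -0.12.

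The list of 17 other LXR targets (16 tested, without Apoc4) had 9 genes whose 18 h response differed between the genotypes, 3 more positive and 6 more negative in BMDM-Nur77-KO, against 9.40% of all genes in either direction. One of the 6 is Elovl6, which BMDM-Nur77-KO at 0 h alone brought past the filter. That group is the baseline of this response, so Elovl6 is no support in this count. The fatty acid enzymes Fads2 and Fads1 were lower in BMDM-Nur77-KO at 18 h, as was Scd2. Fads2, the delta-6 desaturase, was at 3.05 ± 0.391 against 8.34 ± 1.43 CPM (log2 fold change -1.45, SE 0.13, adjusted p = 1.1e-09) and Fads1, the delta-5 desaturase, at 39.9 ± 4.57 against 74.3 ± 4.61 CPM (-0.90, SE 0.09, adjusted p = 4e-09). Elovl6, an elongase, had at 18 h 8 to 24 tags per library (0.763 to 2.09 CPM) in BMDM-WT, overlapping the 3 to 13 tags (0.210 to 1.06 CPM) of BMDM-Nur77-KO. It passed the filter only through BMDM-Nur77-KO at 0 h, so its test is not given. Mertk, a receptor for the uptake of dying cells, was the gene of the list that was higher at 18 h (0.69). The list's median difference, with Elovl6 included, was -0.42. At 18 h 3 of the 16 genes were lower, Elovl6 among them, and 1 higher, against 4.12% and 5.70% of all genes. Srebf1, a lipid synthesis regulator and LXR target, did not differ past the test at any time (-0.33 to 0.21). Before 18 h, 2 genes of the list were lower at 0 h and at 1 h (Apoc2 and Tgm2). Of all genes, 2.44% and 1.36% were lower at these times. At 5 h Arl4c and Tgm2 were lower and Acsl3 higher, against 3.13% and 5.61% of all genes.

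Of 12 genes of cholesterol synthesis and uptake (11 tested), 3 were lower in BMDM-Nur77-KO at 18 h, Dhcr7, Sqle and Stard4, by 0.84, 0.78 and 0.68, against 4.12% of all genes. At 0 h 1 was higher (Hmgcs1, 0.63), against 2.38% of all genes. None was called at 1 and 5 h by edgeR or DESeq2, with 5 and 6 at an unadjusted p under 0.05. Their response at 18 h was more negative in BMDM-Nur77-KO for 6 of 11, where 9.40% of all genes differed in either direction. In a list of 10 lipid uptake and storage genes, Cd36, a fatty acid transporter, was higher at 0 h (0.64, SE 0.13, adjusted p = 0.00077), against 2.38% of all genes. None was called at the later times by edgeR or DESeq2, with 1, 5 and 4 at an unadjusted p under 0.05.

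Since CD5L is a product of tissue macrophages, 12 other genes of such cells were followed (10 tested). Marco, a scavenger receptor, and Folr2, a folate receptor, were higher in BMDM-Nur77-KO at all 4 times, Marco by 1.22 at 0 h and 0.78 at 18 h (adjusted p = 0.0019 and 0.00011). Of all genes, 0.700% were called in the same direction at all 4 times. Spic, a transcription factor of iron-recycling macrophages, was higher at 18 h by 1.47 (adjusted p = 1.4e-08). Timd4, a receptor for dying cells, was at 2.38 to 3.67 CPM in BMDM-Nur77-KO and 0.732 to 1.04 CPM in BMDM-WT at 18 h, and it passed the filter on low values only through BMDM-Nur77-KO groups, so its test is not given. Marco and Folr2 thus differed from BMDM-WT in the direction opposite to Cd5l at every time.

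**Figure D5:**
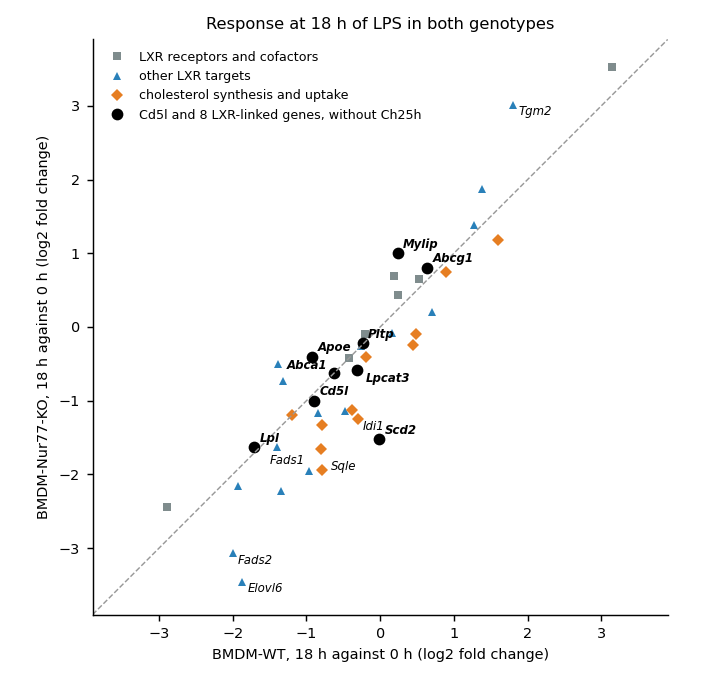
Log2 fold change at 18 h against 0 h in BMDM-WT (horizontal) and BMDM-Nur77-KO (vertical), with the line of equal response dashed. Black circles are 9 of the 10 genes (Ch25h is left out because of its few tags at 0 h), the other symbols genes of the pathway lists. Scd2 lies at -0.01 and -1.52, and Fads1, Fads2 and Sqle also lie below the line.

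The 10 genes did not share one pattern over the 32 libraries, which share depth, the common course of LPS and the split by genotype. Pearson correlations of log2 CPM, given as a description, were 0.85 for Cd5l with Pltp, 0.82 for Abcg1 with Mylip, -0.87 for Abcg1 with Lpl and -0.90 for Scd2 with Ch25h. The genes most like Cd5l among all those tested were Rps3a1 (0.95) and Capza1 (0.90), both on chromosome 3, and Edem1 (0.89). These values and that of Cd5l with Pltp include the genotype difference that chose Cd5l and are no separate support. Correlations within a genotype were not computed. Pltp was most like Sdhc (0.93), Cfp and Ddx39a (0.90 each). The closest genes were Akap11 for Abca1 (0.95), Rit1 for Abcg1 (0.98), Rpl26 for Apoe (0.93) and Rtl5 for Mylip (0.96). For Lpcat3 it was Cln6 (0.92), for Scd2 Lbh (0.99), for Lpl St8sia4 and Cnih1 (0.99 each) and for Ch25h Gna13 (0.98), followed by Nfkb2 (0.98).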

How the data were processed

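RNA-seq was analysed from 1 deposited table of expected counts, made by the authors without normalization. The libraries were strand-specific, and whether the counting used strand is not given in the sources used here. The authors aligned paired reads to mm10 with HISAT2 2.1.0, kept those with a mapping quality above 15 and used HOMER to count tags per RefSeq transcript, where each mate adds 0.5. Of 42361 transcripts, 42203 were named by RefSeq and 65 by GENCODE; the 93 without a name held 0.233% to 1.37% of the tags of a library and were left out. The transcript with the highest mean count stood for each of 25067 genes, and counts were rounded.

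R 4.3.3 was used with edgeR 4.0.16 (TMM, quasi-likelihood test, one model of 8 group means over 32 libraries), limma 3.58.1 and, as an alternative, DESeq2 1.42.0. Genes entered the test if any group mean exceeded 1 RPKM (11279 genes), with Benjamini-Hochberg adjustment over all of them. A call requires the adjusted p to be under 0.05 and the log2 fold change to exceed 0.58 (genotype) or 1 (LPS, 18 h against 5 h). Differences between LPS responses need the adjusted p alone. The limit of 3 tags per library, used where a group was near 0, covers counting error only. Groups came from the sample labels. The scripts were tested on simulated data. The members and gene lists were chosen with earlier results of these data known. Named genes are the 10 genes, Nr4a1, Nr1h2, Nr1h3, Rxra, Srebf1, the 3 largest calls of a list in a comparison and the 3 tested genes with the highest Pearson r to each gene; the genes near Cd5l on chromosome 3, and Mertk, were named after their values were seen. A few results of the gene lists are not reported here. The alternatives were other scalings, filters and tests, transcripts summed per gene, a replicate block, no fold limit, fits to the compared libraries alone and leaving out each library.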

Additional observations from a re-analysis of the deposited data

Results flagged for a closer look

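A library was marked where its distance to the nearest of the 4 libraries of its group exceeded the critical share of the group's range in Dixon's test, which chance does in about 1 of 20 groups. Of the 80 combinations of gene and group, 13 were marked. Replicate 3 of BMDM-WT at 18 h was high for Abca1 (711.4 CPM, the others 425.6 to 442.0) and low for Apoe (1045 CPM), Pltp (708.1 CPM) and Lpcat3 (39.15 CPM). Replicate 1 of BMDM-Nur77-KO at 5 h was low for Abcg1 (180.7 CPM) and Lpcat3 (32.07 CPM). Replicate 4 of BMDM-Nur77-KO at 18 h was high for Mylip (101.8 CPM) and low for Pltp (359.6 CPM). The remaining values were Cd5l in replicate 3 of BMDM-Nur77-KO at 1 h (39.09 CPM), Mylip in replicate 3 of BMDM-WT at 1 h (40.4 CPM) and Pltp in replicate 1 of BMDM-Nur77-KO at 1 h (776.5 CPM). Scd2 was high in replicate 4 of BMDM-WT at 1 h (282.3 CPM) and in replicate 1 of BMDM-WT at 18 h (320.7 CPM).

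Between the genotypes, the response to 18 h of LPS differed in the test of the difference itself for Mylip (0.763 on the log2 scale) and Scd2 (-1.515). Ch25h (3.157) was flagged too, but only groups at 5 and 18 h brought it past the filter. Its value rests on 0 to 4 tags at 0 h, and its adjusted p (edgeR) is 0.12 without BMDM-WT 0 h replicate 4. It is therefore no support here. The cause was not tested.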

How the results depend on the processing

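Of the 2560 values of single genes under the alternatives, 2 had the opposite sign in a comparison that the text describes: the difference of the Cd5l responses at 18 h was 0.003 without BMDM-Nur77-KO 18 h replicate 4 (-0.19 to 0.003 over all libraries left out) and 0.003 with both libraries that stood apart left out, an alternative chosen after seeing the data. Another 72 changed sign where the call passed in neither fit. With no limit on the log2 fold change, the number of genes called, Ch25h included, was 4 at 0 h and 5 at 18 h between the genotypes. It was 3, 6 and 8 for LPS at 1, 5 and 18 h in BMDM-WT and 2, 8 and 9 in BMDM-Nur77-KO. For 18 h against 5 h in BMDM-Nur77-KO it was 8. The share of all genes called without the limit was not computed, so these counts do not set the 10 genes apart from other genes. The genotype count at 5 h was 1 with DESeq2, with DESeq2's size factors in edgeR and with only the libraries compared, since Pltp was then under the limit or, with only the libraries compared, had an adjusted p of 0.12. With both libraries that stood apart left out, the count for 18 h of LPS in BMDM-Nur77-KO, Ch25h included, was 3 in place of 5. The count of responses differing at 5 h was then 1 (Apoe, 0.48, adjusted p = 0.049). Leaving out 1 library gave 1 to 2 genes for the genotypes at 0 h and 1 to 2 at 5 h. For 18 h of LPS in BMDM-Nur77-KO it gave 3 to 5, Ch25h included. The fall of Cd5l at 18 h in BMDM-Nur77-KO lies at the limit of 1 (-1.002 with a replicate block) and was -0.969 with DESeq2 and with its size factors, -0.992 with filterByExpr, -0.987 with no filter, -0.999 with summed transcripts and -0.993 with only the libraries compared. The fall of Mylip at 5 h in BMDM-Nur77-KO was -0.934, -0.932 and -0.961 with DESeq2, its size factors and only the libraries compared. The cause was not tested. Same-numbered replicates share only a number: the correlations of their deviations from the group means ran from -0.70 to 0.46 and exceeded 0.1 in at most 2 of 4 pairs. With a replicate block, the count for 18 h of LPS in BMDM-Nur77-KO, Ch25h included, was 4 in place of 5, with Mylip at 0.999. The other counts of the 10 genes were as without the block. Over all genes, genotype calls were 534, 311, 916 and 1080 with it and 543, 323, 986 and 1108 without it. Leaving out 1 library moved the genotype calls at 5 h over all genes from 986 to between 544 and 1709. Over all genes, responses that differed at 1 h numbered 8, against 37 with DESeq2 and 2 to 9 with 1 library left out. Ch25h at 0 h, with 0 to 4 tags, limits any fold against that time.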
